A study of Danio rerio with 6 samples.

Results

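The slc25 family encodes carrier proteins, most of them of the inner mitochondrial membrane. Its transcripts were measured by RNA-Seq in WT zebrafish embryos and in embryos homozygous for a frameshift allele of *zrsr2*. That gene encodes a splicing factor of the major and minor spliceosomes. The members were all genes whose name begins with *slc25a* and a number in the deposited transcript tables. This gave 56 genes, of which 50 had a mean of at least 0.1 FPKM (StringTie's fragment count, corrected for transcript length and for the size of the library) over the 6 pools and were compared, out of 20018 genes tested and 31886 genes in all. For each gene, the FPKM of all transcripts bearing its name were added up.

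The inner mitochondrial membrane is closed to most metabolites, and carriers of this family exchange nucleotides, phosphate, organic acids, amino acids, carnitine esters, cofactors, iron and glutathione across it. Most of them bind their substrate from one side at a time and release it on the other, and many are strict exchangers. They supply ATP-consuming tissues such as muscle with ATP from the matrix, and they connect the mitochondrion with urea synthesis, gluconeogenesis and fatty acid oxidation in liver and with heme synthesis in red blood cells. Most roles given below were established for human or mouse counterparts. Those of *slc25a37* and *slc25a38* in heme synthesis are also known from zebrafish.

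Each sample was a pool of 10 bodies of embryos of strain Tab5 at 3 dpf, whose heads had been cut off and used to genotype them. Crosses between WT siblings gave the 3 WT pools, of clutches 12, 13 and 15. The 3 mutant pools were homozygous for hg129 (zrsr2hg129/h129 in the labels), a CRISPR/Cas9 frameshift allele in every cell, and came from clutches 3, 4 and 7 of crosses between heterozygous fish, whose mothers carried a WT allele. The labels name no treatment for either group. The genotypes share no clutch, and by the study's methods RNA integrity was higher in all WT pools than in any mutant pool, so that clutch, cross, RNA integrity and genotype cannot be told apart.

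Coverage summed to 7.505 to 9.255 gigabases per WT pool and 8.855 to 9.168 gigabases per mutant pool, and the number of reads behind each FPKM was not estimated. All pool values below are FPKM divided by the median-of-ratios factor of the pool (scaled FPKM), in the order of clutches 12, 13 and 15 for WT and 3, 4 and 7 for mutants. Without this scaling the median log2 difference of all genes moved from 0.02 to -0.19. Scaled *zrsr2* was 1.31, 1.38 and 1.26 in WT pools and 0.602, 0.817 and 1.11 in mutant pools. Every mutant pool was below every WT pool, but the difference did not pass the test (log2 fold change -0.62, SE 0.23, limma adjusted p = 0.176). As markers of the tissue, skeletal muscle genes summed to 20680 to 23320 scaled FPKM in WT and 29380 to 32910 in mutant pools, whereas 6 genes of the eye summed to only 0.617 to 0.944 and 0.464 to 0.987, with *opn1sw1* at 0 in every pool.

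Levels within the family spanned more than 4 orders of magnitude. The ADP/ATP carriers *slc25a5* and *slc25a4* and the phosphate carrier *slc25a3b*, which feed ATP synthase with ADP and phosphate and return ATP to the cytosol, together made up 91.2% to 92.7% of the family's FPKM in WT and 91.3% to 93.2% in mutant pools. Next in level were *slc25a11*, *slc25a12*, *slc25a55a*, *slc25a20* and *slc25a55b*, with WT means between 21.7 and 46.6 scaled FPKM. Since FPKM is per transcript length, these levels can be set beside each other. In all, 10 members had a mean of at least 10 FPKM, 30 lay between 1 and 10, and 10 lay below 1.

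**Figure D1:**
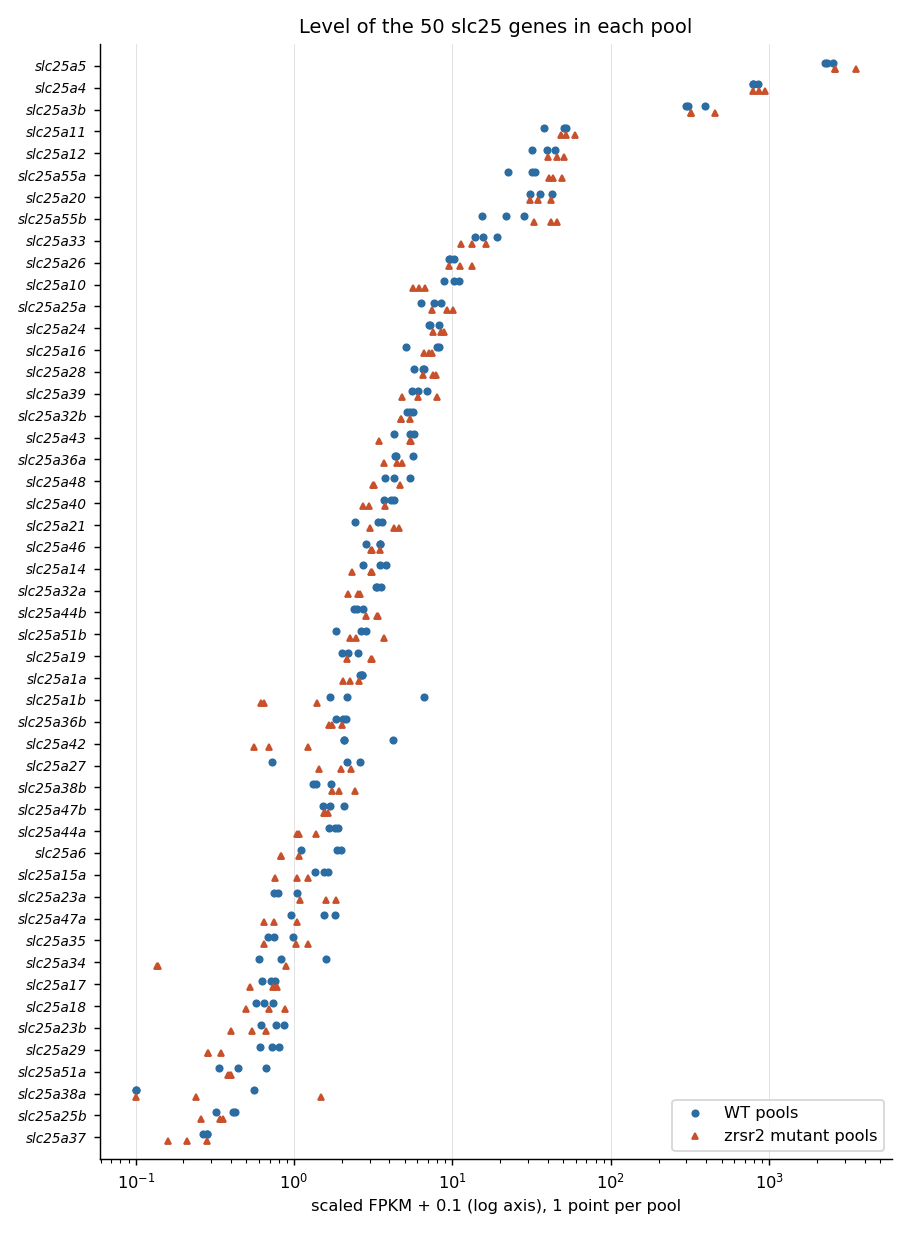
Level of each of the 50 tested slc25 genes in each pool, as scaled FPKM plus 0.1 on a log axis, with circles for the 3 WT pools and triangles for the 3 mutant pools. *slc25a5*, *slc25a4* and *slc25a3b* stand far to the right of all others, and for most genes the 2 sets of points overlap.

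Between genotypes, 2 of the 50 members passed an adjusted p of 0.05, and both fell in mutants. These were *slc25a29*, a carrier of basic amino acids, and *slc25a10*, the dicarboxylate carrier. Only *slc25a29* also passed the fold limit (a log2 difference of 1 or more in either direction) and was called. Over all genes tested, 2.8% were called (1.9% lower in mutants) and 3.69% had an adjusted p below 0.05 (2.32% lower), so that the 1 and 2 of 50 members are close to the background. An unadjusted limma p below 0.05 was reached by 12 members, 3 higher and 9 lower, where 23.0% of all genes reached it. Pools of the genotypes did not overlap in 15 members, with 6 higher and 9 lower in mutants, where the background was 14.9% higher and 15.8% lower. This split moved with the scaling, to 2 higher (background 6.03%) and 18 lower (background 26.8%) without it, and to 2 higher (background 7.95%) and 13 lower (background 21.5%) with equal FPKM sums. The median log2 fold change of the members was -0.03, beside 0.02 for all genes, with 22 members above 0 and 28 below, where 48.8% of all genes were below. Without scaling, 13 members were above 0 and 37 below, where 67.0% of all genes were below, and the median was -0.25 beside -0.19. In that fit 2 members were called (background 4.53%) and 5 had an adjusted p below 0.05 (background 6.51%), all of them lower. Fewer cells of a type and less RNA per cell cannot be told apart in these bulk samples.

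**Figure D2:**
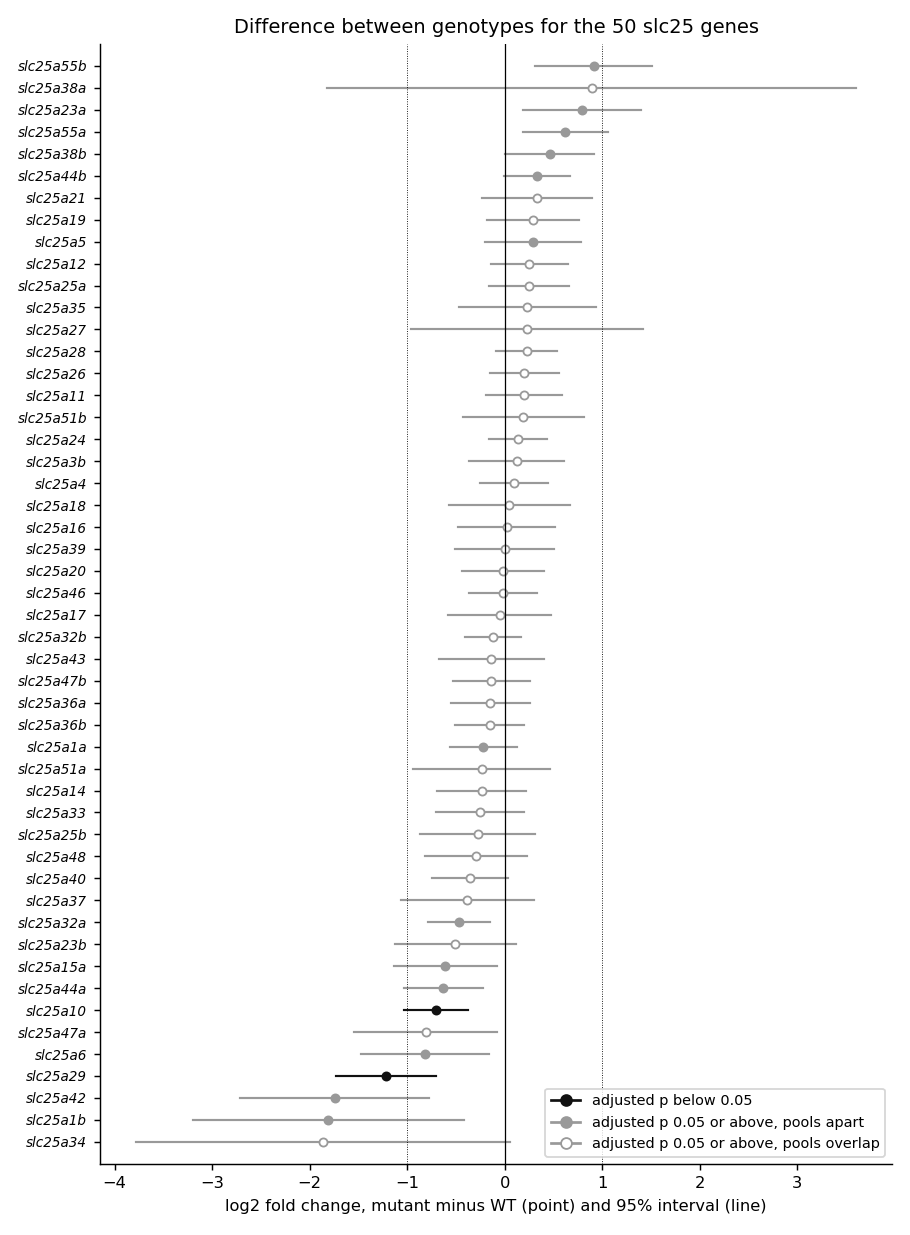
Log2 fold change (mutant minus WT) of the 50 slc25 genes with 95% intervals from limma, sorted by size, with dotted lines at a log2 fold change of 1 in either direction. Black points mark *slc25a10* and *slc25a29* (adjusted p below 0.05), filled grey points the other genes whose pools did not overlap, and open points those whose pools overlapped.

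After scaling, the abundant members tended to lie above 0 and the rarer ones below, with most single differences inside their error. Of the 10 members with a mean of at least 10 FPKM, 8 were above 0, where 1660 of 2792 genes of that level were. The median of the 10 was 0.20, beside 0.09 for all genes of that level, but without scaling only 4 were above 0 with a median of -0.03. Of the 30 members between 1 and 10 FPKM, 19 were below 0, where 4300 of 9008 genes of that level were. The median of the 30 was -0.14, beside 0.02 for all genes there, and without scaling 23 were below 0 with a median of -0.36. Of the 10 members under 1 FPKM, 7 were below 0, where 4343 of 8218 genes of that level were. The median of these members was -0.26, beside -0.04 for all genes there, and without scaling 8 were below 0 with a median of -0.42. Without scaling, all genes were not split by level, and 67.0% of them were below 0.

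The ADP/ATP carriers and phosphate carriers were the largest part of the family, and none of the 4 tested genes passed the test. Scaled *slc25a5* (chr14:32881625-32884138, GRCz11, minus strand, 4 exons) was 2302, 2256 and 2546 in WT pools and 3553, 2605 and 2602 in mutant pools. Mutant pools lay above WT pools by a narrow margin apart from clutch 3, and the log2 fold change was 0.29 (SE 0.20, adjusted p = 0.441), with overlapping pools before scaling. *slc25a4* (chr1:17676745-17679089, plus strand), whose mammalian counterpart is the ADP/ATP carrier of heart and skeletal muscle, was at 790, 850 and 787 in WT pools and 946.5, 795 and 861 in mutant pools. Its log2 fold change of 0.10 (95% interval -0.25 to 0.45) turned to -0.13 without scaling, where every mutant pool was below every WT pool, and to -0.05 when each pool was scaled to the same FPKM sum. The third ADP/ATP carrier, *slc25a6* (chr9:34866576-34871900, minus strand), was far rarer, at 1.89, 1.76 and 0.998 in WT pools and 0.728, 0.732 and 0.974 in mutant pools. Its mutant pools were all lower, with the clutch 15 and clutch 7 pools almost touching (log2 fold change -0.82, SE 0.27, adjusted p = 0.144). As a share of ADP/ATP carrier FPKM, *slc25a6* made up 0.0299% to 0.0611% in WT and 0.0162% to 0.0281% in mutant pools, whereas *slc25a5* held 72.6% to 76.4% and 75.1% to 79.0%. These 3 genes are close paralogues, and how reads that match more than 1 of them were divided is not given in the sources used here.

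The phosphate carrier was expressed almost wholly from *slc25a3b* (chr25:3306620-3321365, plus strand), which shares its assembled locus with *CU207255.2*. Its scaled FPKM was 396, 307 and 299 in WT pools and 456, 322 and 319.7 in mutant pools, which overlapped, and the log2 fold change of 0.12 (95% interval -0.36 to 0.61) turned to -0.11 without scaling, to -0.02 with equal FPKM sums and to -0.05 without the mutant pool of clutch 3. Its paralogue *slc25a3a* fell just short of the limit, with a mean of 0.097 FPKM, and made up at most 0.0685% of phosphate carrier FPKM in any pool. The summed scaled FPKM of the whole family was 3725 to 3919 in WT and 4042 to 5319 in mutant pools, but as a share of all named FPKM the family overlapped between genotypes (0.945% to 0.966% and 0.911% to 1.11%). Without *slc25a4*, *slc25a5* and *slc25a3b* the sums overlapped as well, at 288 to 336 and 319 to 364.

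Among the calcium-regulated ATP-Mg/phosphate carriers, which set the adenine nucleotide content of the matrix, none of the 5 tested genes passed. *slc25a23a* (chr1:54974191-54997746, minus strand) was at 0.651, 0.686 and 0.943 in WT pools and 0.997, 1.49 and 1.73 in mutant pools. All mutant pools lay higher, with a log2 fold change of 0.79 (SE 0.25, adjusted p = 0.133). Before scaling the pools overlapped, with a log2 fold change of 0.59. The best expressed members of this type, *slc25a24* and *slc25a25a*, had overlapping pools and log2 fold changes of 0.14 and 0.25. *slc25a25b*, just inside the limit with a mean of 0.257 FPKM by its named transcripts, had a log2 fold change of -0.28 (95% interval -0.87 to 0.31).

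Of the 5 carriers of di- and tricarboxylic acids, *slc25a10* fell in mutants. It exchanges malate and succinate for phosphate and lies at chr1:56421754-56435774 on the minus strand. Scaled FPKM was 8.75, 10.2 and 10.9 in WT pools and 5.51, 6.64 and 6.02 in mutant pools. The highest mutant pool was below the lowest WT pool, WT pools averaged 1.64 times the mutant pools, and the log2 fold change was -0.70 (SE 0.14, 95% interval -1.03 to -0.37, adjusted p = 0.048). The fold change held between -0.79 and -0.64 when each pool was left out in turn, but the adjusted p rose to between 0.069 and 0.152 in all 6 of these fits. Over all genes, the number with an adjusted p below 0.05 also fell in them, from 739 to between 93 and 575. The main transcript of *slc25a10*, ENSDART00000037576 with 11 exons, carried nearly all of its signal. In the limma fit over all transcripts this transcript did not pass (log2 fold change -0.70, SE 0.14, adjusted p = 0.105).

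The citrate carrier is encoded by 2 genes. *slc25a1b* (chr10:3268581-3295197, minus strand) was at 1.58, 2.06 and 6.49 in WT pools and 1.29, 0.549 and 0.514 in mutant pools. Mutant pools were all lower, but the WT pools were far apart by this named transcript. The log2 fold change was -1.81 (SE 0.58, adjusted p = 0.134). Unnamed transcripts held 82.2%, 80.3% and 32.8% of its FPKM in WT pools and 77.9%, 92.5% and 93.7% in mutant pools. With them included, *slc25a1b* was at 8.90, 10.4 and 9.66 in WT pools and 5.84, 7.37 and 8.13 in mutant pools, again all lower. Its paralogue *slc25a1a* (chr10:23060391-23069323, plus strand) was at 2.57, 2.49 and 2.57 in WT pools and 2.47, 2.15 and 1.92 in mutant pools, with a log2 fold change of -0.22 (SE 0.14, adjusted p = 0.40). The oxoglutarate carrier *slc25a11*, a part of the malate-aspartate shuttle that brings cytosolic reducing power into the matrix, was at 51.8, 50.1 and 37.99 in WT pools and 52.3, 48.1 and 59.3 in mutant pools. These overlapped, and its log2 fold change of 0.20 turned to -0.03 without scaling.

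Among the amino acid and carnitine carriers, 9 of 13 genes were tested and *slc25a29* fell. It lies at chr20:53600638-53624664 on the minus strand. Its level was low, at 0.705, 0.624 and 0.510 in WT pools and 0.184, 0.246 and 0.187 in mutant pools. WT pools averaged 2.98 times the mutant pools with no overlap, and the log2 fold change was -1.22 (SE 0.21, 95% interval -1.73 to -0.71, adjusted p = 0.038). Leaving out each pool in turn gave fold changes between -1.32 and -1.13, with adjusted p between 0.063 and 0.134, so that the call was lost in all 6 fits. In these fits the calls over all genes fell as well, from 561 to between 93 and 509. Coverage summed over *slc25a29* was small, at 8.13 to 15.7 kilobases in WT and 3.25 to 4.96 kilobases in mutant pools before scaling. The sum includes the short transcript ENSDART00000152920, at 0, 0.032 and 0.107 in WT pools and 0 in every mutant pool. The main transcript ENSDART00000083427 alone was also lower in every mutant pool. It did not pass in the limma fit over all transcripts (log2 fold change -1.10, SE 0.31, adjusted p = 0.185). The liver marker genes were lower in the same pools, summing to 2060 to 2471 scaled FPKM in WT and 977 to 1297 in mutant pools, with 9 of 10 below 0 and 4 past an adjusted p of 0.05. The intestine markers summed to 272 to 390 and 78.9 to 164, with 7 of 7 below 0 and 1 past it. Over all genes, 48.8% were below 0 and 2.32% were lower with an adjusted p below 0.05. The part of liver and intestine cells in the falls of *slc25a29* and *slc25a10* was not tested.

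The next gene on chromosome 20 is *slc25a47a*, whose counterpart in mammals is expressed in liver. It lies 3.87 kb from *slc25a29*, on the plus strand. Scaled FPKM was 1.449, 1.704 and 0.858 in WT pools and 0.644, 0.935 and 0.543 in mutant pools. The highest mutant pool was above the lowest WT pool, and the difference did not pass (log2 fold change -0.81, SE 0.30, adjusted p = 0.181). Its paralogue *slc25a47b* on chromosome 17 was at 1.96, 1.59 and 1.42 in WT pools and 1.46, 1.54 and 1.44 in mutant pools, with a log2 fold change of -0.14 (95% interval -0.54 to 0.26).

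The ornithine carrier *slc25a15a* (chr15:3255054-3282220, minus strand), which links the matrix and cytosolic steps of the urea cycle in mammals, was at 1.43, 1.25 and 1.54 in WT pools and 0.656, 0.936 and 1.12 in mutant pools. Mutant pools were lower throughout, without passing the test (log2 fold change -0.61, SE 0.22, adjusted p = 0.167). Of 9 tested genes of urea, ornithine and glutamine metabolism, 8 were below 0, where 48.8% of all genes were, and 2 were called, both lower in mutants, where 1.9% of all genes were. These were the glutaminases *gls2a* (log2 fold change -1.99) and *gls2b* (-1.12). This list, like the other gene lists used here, was chosen with earlier results of these data known.

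The aspartate/glutamate carrier of the malate-aspartate shuttle was expressed from *slc25a12*, at 44.2, 39.3 and 31.6 scaled FPKM in WT pools and 50.7, 40.2 and 45.4 in mutant pools. These overlapped (log2 fold change 0.25, 95% interval -0.14 to 0.64). Its counterpart *slc25a13*, the form of mammalian liver, was under the limit, with at most 0.0695 scaled FPKM in any pool. None of 6 genes of the shuttle's enzymes passed an adjusted p of 0.05.

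The carnitine-acylcarnitine carrier *slc25a20*, which brings fatty acids into the matrix for oxidation, was at 42.3, 35.6 and 30.6 in WT pools and 41.6, 30.7 and 34.8 in mutant pools. Its pools overlapped almost fully (log2 fold change -0.02, 95% interval -0.43 to 0.40), and the sign turned when the WT pool of clutch 12 (0.10) or the mutant pool of clutch 4 (0.09) was left out. All 11 genes of carnitine transfer and fatty acid oxidation were below 0, where 48.8% of all genes were. They lay between -0.49 and -0.02, and none passed an adjusted p of 0.05. Some lay well inside their error, such as *cpt2* (-0.26, SE 2.14) and *hadhab* (-0.06, SE 0.13), while *acadm* (-0.49, SE 0.14) did not.

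The branched-chain amino acid carriers, named here after their values were seen, differed in direction. *slc25a44a* (chr25:6266009-6275207) was at 1.787, 1.704 and 1.571 in WT pools and 1.27, 0.976 and 0.947 in mutant pools, lower in every mutant pool (log2 fold change -0.63, SE 0.17, adjusted p = 0.093). Without scaling it had an adjusted p of 0.029 (log2 fold change -0.84). *slc25a44b* (chr7:48297842-48304787) was at 2.28, 2.63 and 2.41 in WT pools and 2.74, 3.30 and 3.25 in mutant pools, higher in every mutant pool (log2 fold change 0.33, SE 0.14, adjusted p = 0.221). Neither passed after scaling, the pools of *slc25a44b* overlapped before scaling, and the difference between the paralogues was not tested.

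In the glycine carriers, which supply the first step of heme synthesis, *slc25a38b* (chr6:7721292-7735153, minus strand) was at 1.28, 1.61 and 1.22 in WT pools and 1.63, 2.31 and 1.83 in mutant pools. Mutant pools lay higher, with the clutch 13 and clutch 3 pools close together (log2 fold change 0.46, SE 0.19, adjusted p = 0.218). Before scaling the pools of *slc25a38b* overlapped, with a log2 fold change of 0.24. By its named transcript, *slc25a38a* was just inside the limit with a mean of 0.318 FPKM, and it was at 0 in 3 of the 6 pools. Its log2 fold change of 0.89 (95% interval -1.82 to 3.60) rested on 1.37 scaled FPKM in the mutant pool of clutch 7 and was -0.19 without it.

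The mitoferrins import iron for heme and iron-sulfur clusters. The erythroid form *slc25a37* was the lowest of the tested members with a mean of 0.151 FPKM, at 0.181, 0.166 and 0.181 in WT pools and 0.0603, 0.109 and 0.182 in mutant pools. The log2 fold change was -0.38 (95% interval -1.07 to 0.30). The general form *slc25a28* was far higher, at 6.45, 6.49 and 5.59 in WT pools and 6.44, 7.76 and 7.49 in mutant pools, and its log2 fold change of 0.22 was -0.00 without scaling. As a share of mitoferrin FPKM, *slc25a37* made up 2.49% to 3.14% in WT and 0.928% to 2.38% in mutant pools. Scaled FPKM of *slc25a37* alone overlapped between genotypes, though not before scaling, and its coverage was only 1.46 to 5.55 kilobases per pool. The 7 erythroid marker genes overlapped in sum, at 715 to 1201 scaled FPKM in WT and 632 to 1555 in mutant pools. Most of this sum was *hbae1.1*, with means of 823 and 983. Of the 7, 4 were above 0 and 3 below, where 48.8% of all genes were below, and none had an adjusted p below 0.05. Only *gata1a* had pools without overlap, lower in mutants (log2 fold change -0.50, adjusted p = 0.263), where the background was 15.8%. The glutathione carrier *slc25a39* was at 5.46, 6.85 and 5.94 in WT pools and 7.89, 4.69 and 5.98 in mutant pools (log2 fold change -0.00, 95% interval -0.51 to 0.50). Of 13 genes of heme and iron-sulfur cluster synthesis, *nfs1*, the cysteine desulfurase, fell (log2 fold change -0.64, adjusted p = 0.047) and no other passed, where 2.32% of all genes had an adjusted p below 0.05 and were lower.

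Of the 12 carriers of nucleotides, vitamins and cofactors, none passed, 4 were above 0 and 8 below. *slc25a42* (chr2:57076079-57110498, minus strand), which exchanges coenzyme A for adenine nucleotides, was at 4.12, 1.98 and 1.95 in WT pools and 0.592, 1.13 and 0.462 in mutant pools. All mutant pools were lower (log2 fold change -1.75, SE 0.40, adjusted p = 0.068), and without scaling the gene was called, with an adjusted p of 0.044. The folate and flavin carrier *slc25a32a*, named after its values were seen, was at 3.18, 3.42 and 3.21 in WT pools and 2.44, 2.09 and 2.52 in mutant pools (log2 fold change -0.47, SE 0.13, adjusted p = 0.105), and had an adjusted p of 0.038 without scaling (log2 fold change -0.69). Its paralogue *slc25a32b* overlapped, at 5.10, 5.51 and 5.27 in WT pools and 5.31, 4.66 and 4.61 in mutant pools.

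Both *slc25a55a* and *slc25a55b*, which are abundant in these bodies, lay higher in every mutant pool. *slc25a55b* (chr23:409578-419441, plus strand) was at 28.1, 21.7 and 15.2 in WT pools and 41.5, 32.6 and 45.8 in mutant pools. The lowest mutant pool was above the highest WT pool, also before scaling (log2 fold change 0.91, SE 0.25, 95% interval 0.31 to 1.51, adjusted p = 0.098). *slc25a55a* (chr6:49095636-49107046, plus strand) was at 33.1, 22.2 and 31.8 in WT pools and 48.8, 40.5 and 43.2 in mutant pools, again without overlap before and after scaling (log2 fold change 0.62, SE 0.18, adjusted p = 0.113). Neither passed the test. The skeletal muscle marker genes were higher in the same pools, with 6 of 7 above 0 and *tnnt3a* alone past an adjusted p of 0.05, and their part in these values was not tested.

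**Figure D3:**
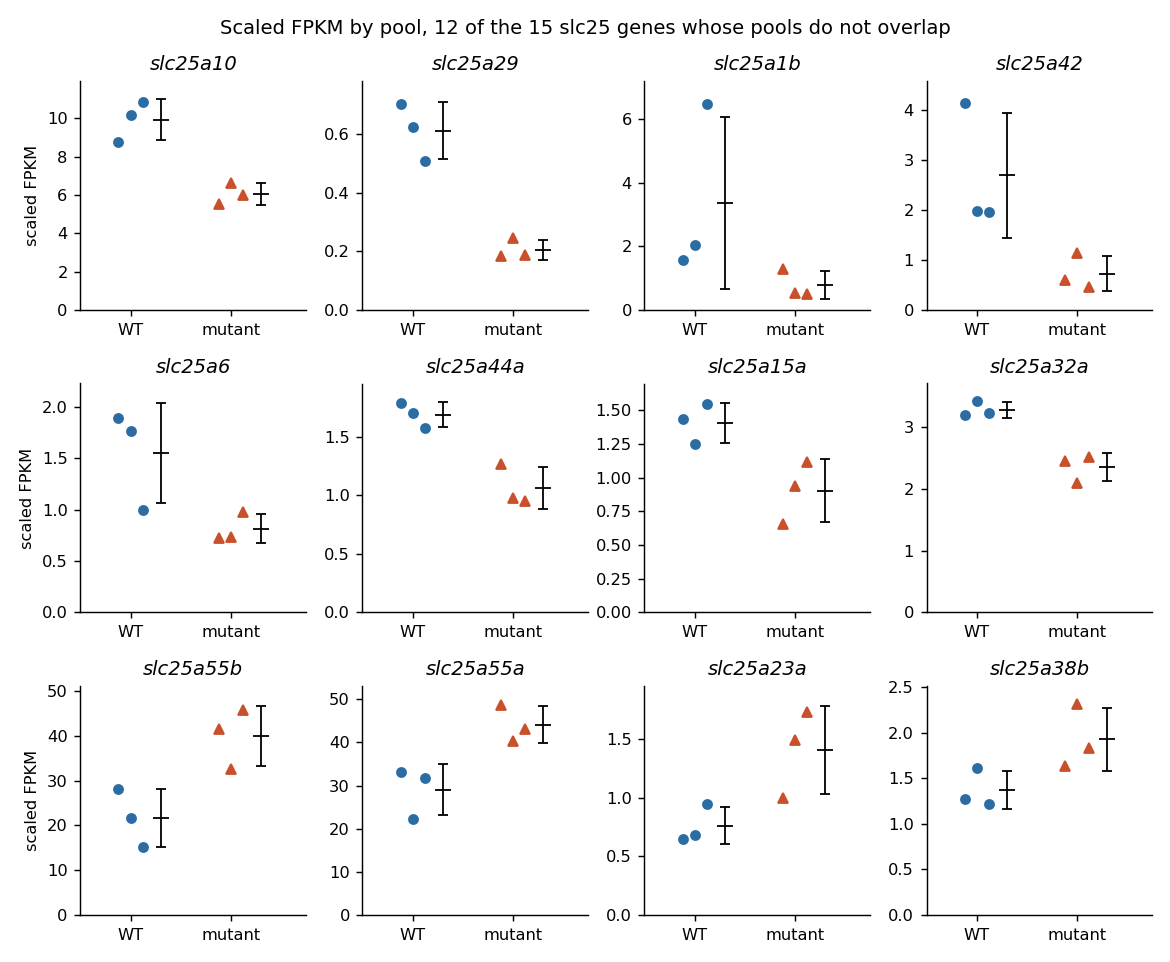
Scaled FPKM in each pool for 12 of the 15 slc25 genes whose WT (circles) and mutant (triangles) pools did not overlap, with the mean and SD of each group beside the points. The top row shows *slc25a10* and *slc25a29* with narrow groups set well apart, *slc25a1b* with 1 high WT pool (6.49) and *slc25a42* with a high pool of clutch 12 (4.12). Unnamed transcripts are left out, and with them the WT pools of *slc25a1b* were at 8.90, 10.4 and 9.66. The last row shows the 4 genes with higher mutant pools.

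At some of these genes a large share of the FPKM came from assembled transcripts that carry no gene name, which the gene sums above leave out. Of 127 transcripts at the 56 genes, 102 were named and 25 were not, and the unnamed ones overlapped 19 genes. They made up 74.2% of the FPKM at *slc25a1b*, 52.2% at *slc25a42*, 59.4% at *slc25a23a*, 75.7% at *slc25a25b* and 79.6% at *slc25a38a*. At the abundant members their share was small, with 1.30% at *slc25a4*, 1.55% at *slc25a3b* and no unnamed transcript at *slc25a5*. With the unnamed transcripts included, the log2 fold change of *slc25a1b* shrank from -1.81 to -0.47 (adjusted p = 0.096), that of *slc25a42* from -1.75 to -0.58 (adjusted p = 0.074) and that of *slc25a23a* from 0.79 to 0.45. The pools of *slc25a23a* overlapped with this sum. The fold change of *slc25a25b* turned from -0.28 to 0.27 (adjusted p = 0.411). Every mutant pool of it then lay above every WT pool, narrowly for mutant clutch 3 (0.997) beside WT clutch 12 (0.971). That of *slc25a10* was -0.77 (adjusted p = 0.014). *slc25a29* has no unnamed transcript, so that its sum was the same, and its adjusted p of 0.015 (log2 fold change -1.24) came from scaling and fitting with the new sums of other genes. Under this definition 4 of 52 members had an adjusted p below 0.05, all lower, where the background was 8.98% (5.18% lower), and 2 were called, where it was 4.6% (2.87% lower). With FPKM summed over whole assembled loci, 3 had an adjusted p below 0.05 (background 6.7%) and 2 were called (background 4.08%).

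The second call was *slc25a22a*, a glutamate carrier just under the limit by its named transcripts, which held only 0.068 FPKM on average. Its level came from the unnamed transcript MSTRG.15614.1 (chr25:4459245-4502789, minus strand, 11 exons), which begins before the first exon of the annotated transcripts and overlaps no other named gene. It was at 1.83, 1.98 and 1.59 scaled FPKM in WT pools and 0.639, 0.823 and 0.638 in mutant pools. Every mutant pool was under every WT pool, and with this transcript included the sum of the gene fell (log2 fold change -1.13, adjusted p = 0.008). The named transcripts of *slc25a22a*, which were not tested in the main fit, went the other way, before and after scaling. They summed to 0.03068, 0.04335 and 0.04505 scaled FPKM in WT pools and 0.1496, 0.08744 and 0.07196 in mutant pools. Coverage over these named transcripts was only 0.539 to 2.09 kilobases per pool before scaling, so their direction rests on very little signal. The branched-chain amino acid carrier *slc25a44a* also passed in the fit with unnamed transcripts, with an adjusted p of 0.047 (log2 fold change -0.65). Like *slc25a29*, it has no unnamed transcript, so that its own sum was the same. The ornithine carrier *slc25a15b* was at 0 in every pool by its named transcripts, and its unnamed transcript MSTRG.19420.1 held 0.380, 0.530 and 0.620 scaled FPKM in WT pools and 0.296, 0.366 and 0.388 in mutant pools, which overlapped. The other gene just under the limit was *slc25a24l*, with a mean of 0.068 FPKM.

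One further member, *slc25a34* (chr22:184670-188112, minus strand), was called only when the mutant pool of clutch 3 was left out, and is named after its values were seen. Its scaled FPKM was 1.496, 0.732 and 0.502 in WT pools and 0.785, 0.0354 and 0.0378 in mutant pools. The clutch 3 pool lay among the WT pools, whereas those of clutches 4 and 7 were far below them. The log2 fold change was -1.87 (SE 0.80, adjusted p = 0.226) over all pools and -2.79 (adjusted p = 0.046) without clutch 3. With its unnamed transcript included it was -0.85 (SE 0.51, adjusted p = 0.327).

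**Figure D4:**
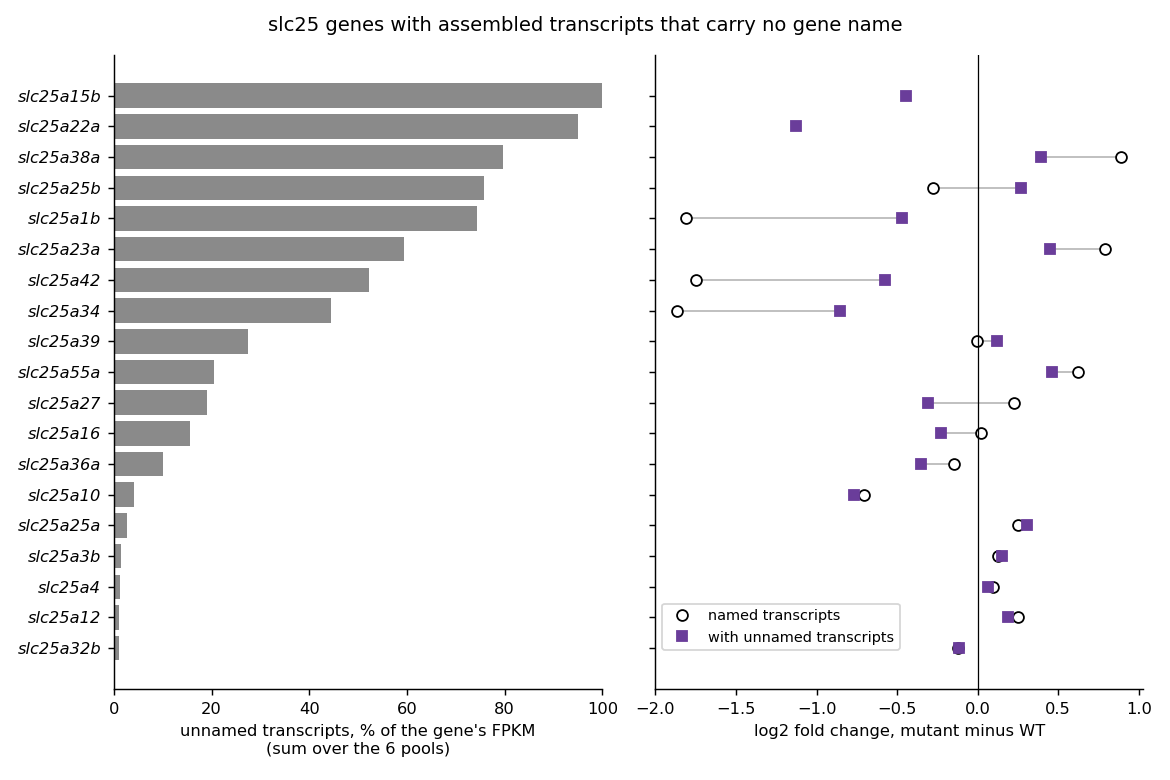
Left, share of FPKM from unnamed transcripts at the 19 slc25 genes that have any, summed over the 6 pools. Right, log2 fold change (mutant minus WT) from named transcripts (open circles) and with unnamed transcripts added (squares), which moves *slc25a1b* from -1.81 to -0.47 and *slc25a42* from -1.75 to -0.58 and adds *slc25a22a* at -1.13.

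Single transcripts were compared in a fit over 43672 transcripts. Of the 88 tested at slc25 genes none was called (background 1.22%), 15 had an unadjusted limma p below 0.05, with 4 higher and 11 lower (background 16.5% in both directions), and 24 had pools that did not overlap, with 9 higher (background 14.4%) and 15 lower (background 10.7%). The transcripts named here were chosen after their values were seen. MSTRG.15614.1 at *slc25a22a* came nearest to a call, with a log2 fold change of -1.25 (SE 0.21, adjusted p = 0.064). At *slc25a14*, a relative of the uncoupling proteins, the gene sum overlapped (log2 fold change -0.24), while its transcripts lay on opposite sides. ENSDART00000139178, with 9 exons, was at 1.19, 1.22 and 0.978 in WT pools and 1.30, 2.38 and 2.70 in mutant pools (log2 fold change 0.80, SE 0.31, adjusted p = 0.288). ENSDART00000036600, with 8 exons, was at 2.35, 1.37 and 2.38 in WT pools and 0.866, 0.432 and 0.297 in mutant pools (log2 fold change -1.82, SE 0.42, adjusted p = 0.130). Neither passed, and the difference between them was not tested.

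At *slc25a42* the named transcript ENSDART00000181132 (8 exons) carried the low mutant values given above, whereas the longer unnamed MSTRG.10929.1 (9 exons) was at 1.31, 1.94 and 1.86 in WT pools and 2.05, 1.87 and 2.69 in mutant pools, which overlapped (log2 fold change 0.35, SE 0.24, adjusted p = 0.50). At *slc25a3b* an unnamed transcript of 7 exons, MSTRG.15576.3, was listed at 0 in all WT pools and in the mutant pool of clutch 3, and at 5.90 and 28.5 in those of clutches 4 and 7. It was the only slc25 transcript called when the mutant pool of clutch 3 was left out. Its named neighbours ENSDART00000182085 and ENSDART00000034704, which have 8 exons each, overlapped between genotypes. At the glutamate carrier gene *slc25a18*, ENSDART00000174460 was at 0.197, 0.157 and 0.239 in WT pools, at 0.0763 in the mutant pool of clutch 7 and listed at 0 in the others (adjusted p = 0.218). The longer transcript of this gene, ENSDART00000155764, was at 0.2812, 0.3862 and 0.3255 in WT pools and 0.3489, 0.5963 and 0.6628 in mutant pools. These overlapped (log2 fold change 0.53, SE 0.32, adjusted p = 0.454). The gene sum of *slc25a18* had a log2 fold change of 0.05 (SE 0.26, adjusted p = 0.93).

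**Figure D5:**
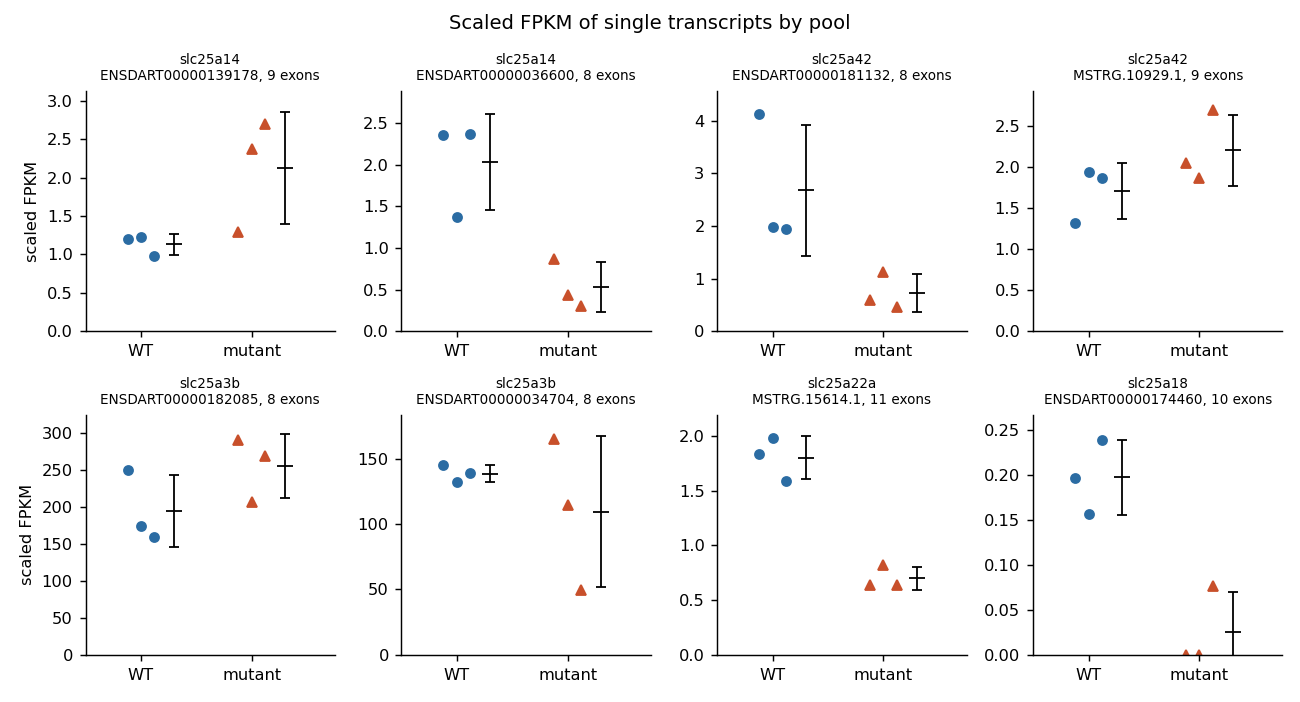
Scaled FPKM of 8 single transcripts at 5 slc25 genes by pool (circles WT, triangles mutant), with the mean and SD of each group beside the points. The pair at *slc25a14* lies on opposite sides, the pair at *slc25a42* differs in whether mutant pools are low, the pair at *slc25a3b* overlaps between genotypes, and MSTRG.15614.1 at *slc25a22a* is lower in all 3 mutant pools.

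Carriers of the same superfamily under other names gave no call. The uncoupling proteins *ucp1*, *ucp2* and *ucp3* had log2 fold changes of 0.14, -0.48 and -0.94, and none of the 4 such genes tested had an adjusted p below 0.05. Of 13 other inner membrane carriers, among them the pyruvate carrier and sideroflexins, 10 were below 0, where 48.8% of all genes were, and none passed. The 3 voltage-dependent anion channels of the outer membrane were all above 0, from 0.28 to 0.36, and none passed.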

How the data were processed

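RNA-Seq was performed on 3 WT and 3 mutant pools of 10 bodies each (stranded total RNA). The authors removed low-quality reads, used HISAT2 2.2.1.0 for alignment (GRCz11) and ran StringTie 2.0.3 to estimate transcripts. The deposited FPKM are StringTie's own, per transcript length and mapped fragments. The deposited coverage is the mean depth of each transcript, unscaled and fractional, and reads per gene were not estimated from it, so that no counting error is given.

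FPKM was summed per gene name and chromosome, divided by median-of-ratios factors, and compared as log2(FPKM + 0.1) for genes with a mean of at least 0.1 FPKM in R 4.3.3 by limma 3.58.1 (trended eBayes, two-sided, p-values adjusted over all genes after Benjamini and Hochberg, without covariates). Fold changes are on this scale, which understates changes of low genes. Transcripts were scaled by the factors of the genes. Genes were called at an adjusted p below 0.05 with a log2 difference of 1 or more in size. With 3 pools against 3 an exact permutation test cannot go below 0.1, so shares are described only. On simulated data of 20018 genes, 70 of 100 genes changed by 2 and 90 of 100 changed by 3 on the log2 scale were called, as were 11 of 19818 unchanged genes. Changes between 0 and 2 were not simulated, so the share of them that would be called is not known. Tables and figures were made with Python 3.11.15, pandas 2.3.3, numpy 2.4.6 and matplotlib 3.10.9.

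Members and lists were chosen with earlier results of these data known. Named genes were those with an adjusted p below 0.05, the 8 most abundant, the 3 just inside and outside the limit, the 4 largest differences in each direction without overlap, and 17 chosen for their roles. Other members named beside these were chosen after their values were seen. Alternatives were pseudocounts of 1 and 0.01, no filter or a mean of at least 1, no scaling, equal FPKM sums, unnamed transcripts added, whole loci, robust eBayes and each pool left out. No sequence is shown, since no genome of this build was used here.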

Additional observations from a re-analysis of the deposited data

How the results depend on the processing

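The fold change of *slc25a10* stayed negative under all 15 alternatives, as did that of *slc25a29* under those that tested it (a mean of at least 1 FPKM removes it), while their side of the threshold changed. The number of slc25 genes called (1) was 0 with a pseudocount of 1, with no filter and with a mean of at least 1 FPKM, 2 with no scaling, with unnamed transcripts added and with whole loci, and 0 to 1 with each pool left out, the 1 being *slc25a34* without the mutant pool of clutch 3 (-2.79, adjusted p = 0.046). Over all genes, 282 of 20018 were called with a pseudocount of 1, 456 of 25915 with no filter and 410 of 11800 with a mean of at least 1. With each pool left out, 93 to 509 genes were called, beside 561 with all pools. With a pseudocount of 1, *slc25a29* was at -0.42 (adjusted p = 0.039), under the fold limit. The number with an adjusted p below 0.05 (2) was 1 with a pseudocount of 0.01 and with a mean of at least 1 FPKM, 0 with no filter, 5 with no scaling, 4 with unnamed transcripts added, and 0 to 1 with each pool left out (again *slc25a34*). Over all genes, an adjusted p below 0.05 was reached by 684 of 20018 with a pseudocount of 0.01 and 688 of 11800 with a mean of at least 1. It was reached by 598 of 25915 with no filter, and by 93 to 575 genes with each pool left out. The number of transcripts called (0) was 1 with no scaling and 0 to 1 with each pool left out. Over all transcripts, 613 of 43672 were called with no scaling, and 110 to 519 with each pool left out. With no filter the adjusted p was 0.05004 for *slc25a29* and 0.0533 for *slc25a10*, which was at 0.0502 with a pseudocount of 0.01. Over the alternatives that tested each, it ranged from 0.015 to 0.134 and from 0.014 to 0.152.

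Signs turned at small fold changes. With no scaling they were -0.11 for *slc25a3b*, -0.13 for *slc25a4*, -0.03 for *slc25a11* and -0.0028 for *slc25a28*, and with equal FPKM sums -0.0197 for *slc25a3b* and -0.0452 for *slc25a4*. With unnamed transcripts added and with whole loci they were 0.27 and 0.22 for *slc25a25b* and 0.12 and 0.0726 for *slc25a39*, which was 0.0015 with a pseudocount of 1. Without single pools they were -0.0465 for *slc25a3b* (mutant clutch 3, range up to 0.2486), 0.10 and 0.09 for *slc25a20* (WT clutch 12, mutant clutch 4), -0.19 for *slc25a38a* (mutant clutch 7, range up to 1.76), and 0.08, 0.18 and 0.0078 for *slc25a39* (WT clutch 13, mutant clutches 4 and 7). The causes were not tested. With no scaling, *slc25a42* (-1.95, adjusted p = 0.044), *slc25a44a* (-0.84, adjusted p = 0.029) and *slc25a32a* (-0.69, adjusted p = 0.038) also passed. No paired analysis was possible because the clutch numbers of the genotypes do not overlap. Reads per member were not estimated, so no depth limits are given.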
